A study of Mus musculus with 2 samples.

Results

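Interferon-stimulated genes were compared between spleen cells that bind the peptide Zfra, Z(+), and spleen cells that do not, Z(-). The genes were taken by name from a list of 34 genes, of which 31 had at least 1 probe on the array, with 35 probes among 26423 in all and 31 genes among 19084. Ifit3, Oas1a and Ifi44 had no listed probe and are not analysed here. The cells came from naïve NOD-SCID mice aged 6 to 8 weeks, which carry the scid mutation and lack mature T and B cells in both groups, and they were sorted directly after isolation with neither culture nor treatment. The series text gives the number 8, which reads as 8 pooled spleens, and each fraction gave 1 RNA sample run on 2 technical arrays. That the sort used Zfra binding is inferred from how the study names these cells and sorted others. Because each fraction is 1 sample, the differences are descriptions, without any test.

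Interferons are secreted proteins that cells release when they sense virus or other foreign nucleic acid. Type I interferons bind the receptor of Ifnar1 and Ifnar2, whose kinases phosphorylate STAT2. A complex that holds STAT2 and IRF9 then binds the interferon-stimulated response element in front of many genes, whose products block viral replication or sharpen sensing. A low, tonic level of this program is present in many cells without infection.

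Several members had the letters of the response element directly before their annotated start. In the RefSeq promoter windows of GRCm38.p6, which span 250 bases before to 50 after a start, 27 of the 34 listed genes were found and 14 of them had its core, which is GAAA, any 2 bases and GAAA again, on either strand. Of all 27025 genes with such a window, 3.99% had it. The core was fully before the start in 8 measured members, and 6 of these are printed, chosen after their values were seen to span the range of differences. Each is 80 bases, 5′ to 3′ along the strand of the gene, and capitals mark the core or its reverse complement.
Bst2, chr8:71537555-71537634, minus strand, 162 to 83 bases before the start: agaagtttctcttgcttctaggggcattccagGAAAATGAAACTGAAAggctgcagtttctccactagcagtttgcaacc
Isg15, chr4:156200846-156200925, minus strand, 107 to 28 bases before the start: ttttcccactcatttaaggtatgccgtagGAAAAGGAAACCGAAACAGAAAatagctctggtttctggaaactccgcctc
Ifit1, chr19:34640759-34640838, plus strand, 130 to 51 bases before the start: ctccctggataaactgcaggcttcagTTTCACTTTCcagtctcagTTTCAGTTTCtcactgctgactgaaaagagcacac
Gbp3, chr3:142559964-142560043, plus strand, 80 to 1 bases before the start: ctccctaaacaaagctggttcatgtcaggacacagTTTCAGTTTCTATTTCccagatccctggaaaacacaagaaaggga
Gbp2, chr3:142620569-142620648, plus strand, 94 to 15 bases before the start: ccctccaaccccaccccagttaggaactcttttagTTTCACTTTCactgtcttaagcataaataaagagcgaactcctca
Oas3, chr5:120777690-120777769, minus strand, 110 to 31 bases before the start: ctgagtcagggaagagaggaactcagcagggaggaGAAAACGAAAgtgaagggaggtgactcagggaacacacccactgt

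The core appeared 3 times in overlap in the printed Isg15 stretch, and 2 times each in Bst2, Ifit1 and Gbp3. The shorter gamma-activated site TTCNNNGAA was in the windows of 7 listed genes and in those of 9.55% of all genes with a window. In Bst2 and Ifitm3 it overlapped the core. Other members, such as Irf7 and Irf9, had neither match in their windows, and such a lack of letters says nothing of a factor. A match is a stretch of letters and was not tested for binding.

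**Figure D1:**
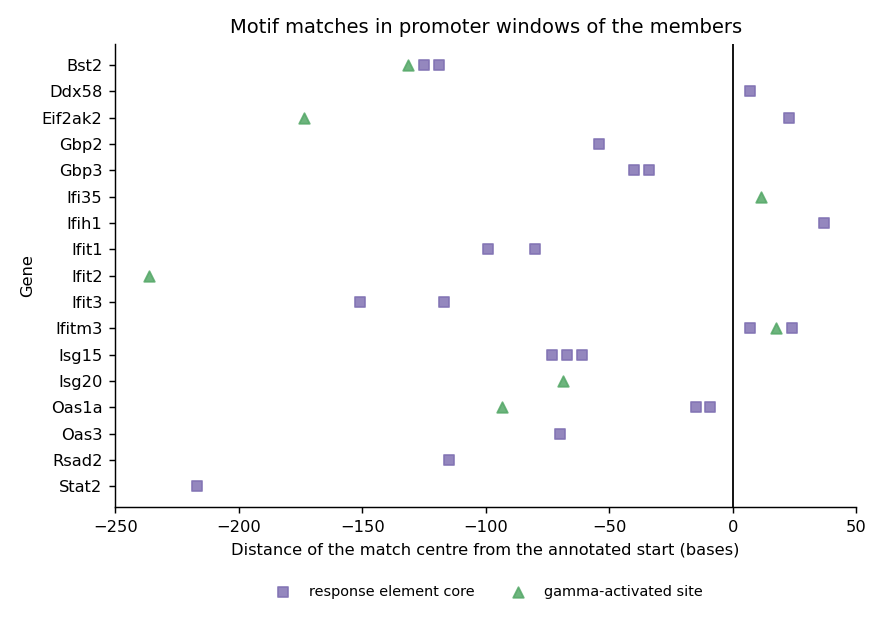
Matches of the interferon response element core (squares) and of the gamma-activated site (triangles) in the promoter windows of the listed genes, by distance in bases from the annotated start. Most squares lie before the start, while those of Ddx58, Eif2ak2, Ifih1 and Ifitm3 lie after it.

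As a set, the interferon-stimulated genes differed little between Z(+) and Z(-). None of the 31 measured members was at least 2-fold higher in Z(+) and none at least 2-fold lower, where 2.44% and 6.27% of all genes were. All 31 members reached the median of all genes, an intensity of 121, and among the genes that reach it the shares were 2.12% and 6.14%. Most of these genes, 91.7%, thus also lay within 2-fold, so this count is not particular to the members. The median log2 difference of the members, Z(+) minus Z(-), was 0.04, beside 0.03 for all genes and 0.00 for those that reach the median. Of the members 17 were higher and 14 lower, though Oas2, Gbp3, Ifitm3 and Rsad2, counted as lower, turned higher under another setting. Of all 19084 genes, 10324 were higher and 8726 lower, and of the 9542 that reach the median, 4794 and 4748. A direction shared by the few members of a role below is a description and was not tested. The differences of the members ran from -0.88 in Bst2 to 0.47 in Ifit2. Their SD was 0.35, beside 0.63 for all genes that reach the median, and 29 of 31 members, 93.5%, were within 1.5-fold, beside 78.0% of the latter. At 1.5-fold, 0 members were higher and 2, Isg15 and Bst2, were lower, where 7.65% and 14.3% of genes that reach the median were. These spreads are given as a description, with no test.

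**Figure D2:**
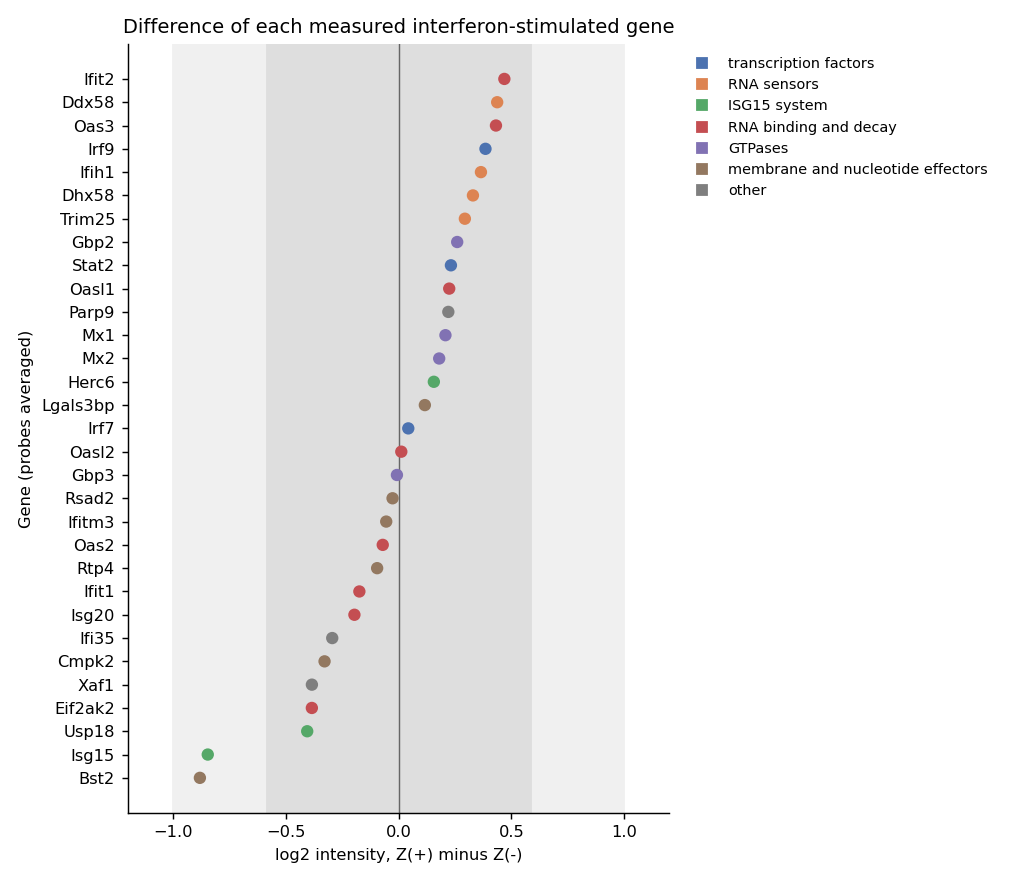
Log2 intensity of Z(+) minus Z(-) for each of the 31 measured members, with several probes of a gene averaged, coloured by role. The dark band spans 1.5-fold and the light band 2-fold either way. Isg15 and Bst2 stand below the dark band and the other 29 members lie within it.

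The 3 transcription factors of the response were all higher in Z(+), each by less than 1.5-fold. Stat2, a signal transducer below the type I receptor, gave a signal intensity of 1973 in Z(-) against 2317 in Z(+). Irf9, the DNA-binding part of the complex, had 1940 and 2534, which is 1.31-fold higher. Irf7, the factor that amplifies type I interferon production and is abundant in plasmacytoid dendritic cells, had 20109 in Z(-) and 20718 in Z(+). Its difference of 0.04 on the log2 scale was near that of all genes.

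The sensors of viral RNA formed the role whose members lay closest together, with all 4 higher in Z(+) by 0.29 to 0.44 on the log2 scale and an SD of 0.06. Ddx58, which encodes RIG-I, a sensor of short RNA with 5′ triphosphates, gave a signal intensity of 647 in Z(-) against 877 in Z(+). Ifih1, which encodes MDA5, a sensor of long double-stranded RNA, had 295 and 380. Dhx58, which encodes LGP2, a regulator of both sensors, had 1974 and 2481. Trim25, a ubiquitin ligase known for its part in RIG-I signaling, had 8788 and 10773. The single technical arrays gave Ddx58 651 and 643 in Z(-) against 861 and 892 in Z(+), so the arrays of the fractions did not overlap. For Ifih1 they gave 298 and 292 against 368 and 392, again without overlap.

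The genes of the ISG15 system went in both directions. Isg15, a ubiquitin-like protein that is attached to other proteins, gave a signal intensity of 7738 in Z(-) against 4306 in Z(+), which is 1.80-fold lower. Usp18, the protease that removes ISG15 and also dampens the type I receptor, had 3017 and 2279 and was 1.32-fold lower. Herc6, the main ligase that attaches ISG15 in mice, had a pair of probes that differed. Its brighter probe had 672 in Z(-) and 861 in Z(+), and its technical arrays, 669 and 675 against 855 and 867, did not overlap. Its dimmer probe had 93.0 and 90.2, with overlapping arrays. Of this role Isg15 alone passed 1.5-fold.

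The proteins that bind, mark or degrade foreign RNA were the most mixed role, with 4 of 8 measured genes higher in Z(+) and 4 lower, of which Oas2 turned under another setting. Ifit1 and Ifit2, which bind viral RNA and hold back its translation, lay on opposite sides of 0. Ifit1 gave a signal intensity of 2642 in Z(-) against 2343 in Z(+), and Ifit2, the member with the largest difference upward, had 2273 and 3146, which is 1.38-fold higher. Among the oligoadenylate synthetases, which make the messenger that switches on RNase L, Oas2 had 6194 and 5900 while Oas3 had 3586 and 4836. Oas3 was thus 1.35-fold higher and Oas2 differed by -0.07 on the log2 scale. The related Oasl1, known in mice to restrain translation of Irf7, had 1217 and 1422, and its arrays, 1234 and 1200 against 1355 and 1488, did not overlap. Oasl2 had 4350 in Z(-) and 4386 in Z(+), a difference of 0.01.

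Eif2ak2, which encodes PKR, the kinase that stops translation when it meets double-stranded RNA, had 1778 in Z(-) and 1362 in Z(+). Its arrays, 1728 and 1827 against 1335 and 1389, put Z(+) below Z(-) without overlap. Isg20, an exonuclease of single-stranded RNA, had 3 probes. The brightest gave 3046 and 2150, the middle one 358 and 364 and the dimmest 33.5 and 31.1. The brightest probe was thus 1.42-fold lower in Z(+), while the arrays of both others overlapped between the fractions.

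Of the 4 GTPases, 3 were higher in Z(+) and none by 1.5-fold. Mx1, which acts in the nucleus of mouse cells, gave a signal intensity of 1408 in Z(-) against 1626 in Z(+), with arrays of 1448 and 1367 against 1624 and 1628. Mx2, its cytoplasmic relative in mice, had 1110 and 1257, with arrays of 1114 and 1106 against 1273 and 1242. Both genes were thus higher by 0.21 and 0.18 on the log2 scale, with arrays that did not overlap. The guanylate-binding proteins, which coat the vacuoles of intracellular pathogens, had 10570 and 12656 for Gbp2 and 7850 and 7810 for Gbp3. Gbp3 was the member nearest to no difference, and its sign turned under another setting.

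Of the 6 proteins of membranes and of nucleotide metabolism, 5 were lower in Z(+), of which Ifitm3 and Rsad2 turned under another setting. Bst2, also called tetherin, holds budding virus at the cell surface and in naïve mice marks plasmacytoid dendritic cells. It had 16689 in Z(-) and 9066 in Z(+), 1.84-fold lower and the largest difference of the 31 members. Of 6 measured markers of plasmacytoid dendritic cells, other than Bst2 itself, 4 were at least 2-fold lower, where 6.27% of all genes were. The median log2 difference of the 6 was -1.38. Siglech, a surface lectin of these cells, had 408 and 93.6, and Ly6d had 674 and 151. Of the 4, Cox6a2 had probes that differed, 189 and 179 for the brighter, with overlapping arrays, and 134 and 28.6 for the dimmer. The log2 differences of Tcf4 and Ccr9 were -0.15 and -0.23, within 2-fold. The part of plasmacytoid dendritic cells in the difference of Bst2 was not tested. In RNA of a whole fraction, fewer cells of a type and less RNA per cell cannot be told apart.

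Rsad2, which encodes viperin, an enzyme that makes a chain-terminating nucleotide, had 4191 in Z(-) and 4114 in Z(+). Cmpk2, a mitochondrial nucleotide kinase, had 6188 and 4930, which is 1.26-fold lower. Ifitm3, which blocks the fusion of virus with endosomes, had 57963 and 55807, near the highest values of the table, 65528 and 65296, where a scanner can compress differences. Rtp4, a chaperone of membrane receptors, had a pair of probes that disagreed in direction. The brighter gave 14267 and 11239 and the dimmer 606 and 674. Lgals3bp, a secreted glycoprotein that binds galectins, had 7380 and 8001 and was 1.08-fold higher.

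The remaining members were Ifi35, Parp9 and Xaf1. Ifi35 gave a signal intensity of 2271 in Z(-) against 1853 in Z(+). Parp9, which acts with the ubiquitin ligase DTX3L, had 4202 and 4895. Xaf1, a binder of the apoptosis inhibitor XIAP, had 414 and 318, and its arrays, 421 and 408 against 300.1 and 335, put Z(+) below Z(-). None of these passed 1.5-fold.

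**Figure D3:**
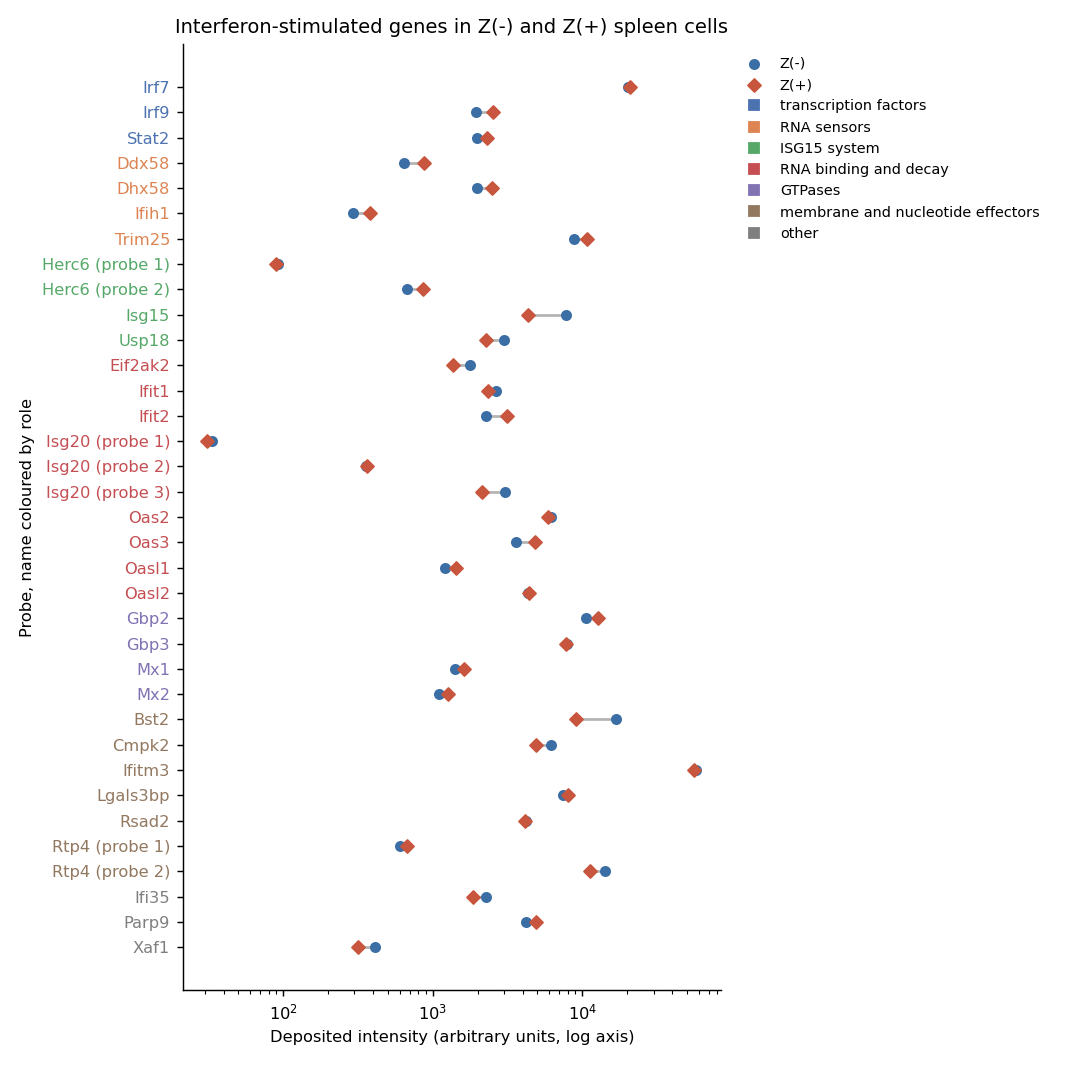
Deposited intensity of each of the 35 probes of the members in Z(-) (circles) and Z(+) (diamonds) on a log axis, with probe names coloured by role and probes of a gene numbered from the dimmest. The longest lines are those of Bst2 and Isg15. Levels of different probes cannot be set against each other, because brightness depends on the probe.

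Technical arrays and second probes give the measuring error behind these values. Below an intensity of 2000, the deposited value could be split into the 2 technical arrays, and 12 of the 35 probes could be split in both fractions. In 7 of the 12 both arrays of Z(+) were above both of Z(-), in 2 both were below and in 3 they overlapped. Of all 18779 named probes that could be split, the arrays of Z(+) were above in 39.0% and below in 31.9%, so arrays without overlap are common on this platform. Between intensities of 400 and 2000, 95% of probes had arrays within 1.11-fold in Z(-) and within 1.14-fold in Z(+). Where several splits fitted a value, only those with similar arrays were considered, so this spread may be too narrow. Between 100 and 400 the spread was wider, at 1.13-fold in Z(-) and 1.31-fold in Z(+). The values of Ifih1 and Xaf1 in Z(+) lie in that range, and their differences of 1.29-fold and 1.31-fold do not exceed its spread in Z(+). That spread is between single arrays, while the differences are between means of 2 arrays, so the measures are unlike. The 2 log2 differences of genes with 2 probes differed from each other by a root mean square of 0.84 over 2104 genes. These arrays measure the hybridisation and say nothing of the spread between sorts or mice.

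**Figure D4:**
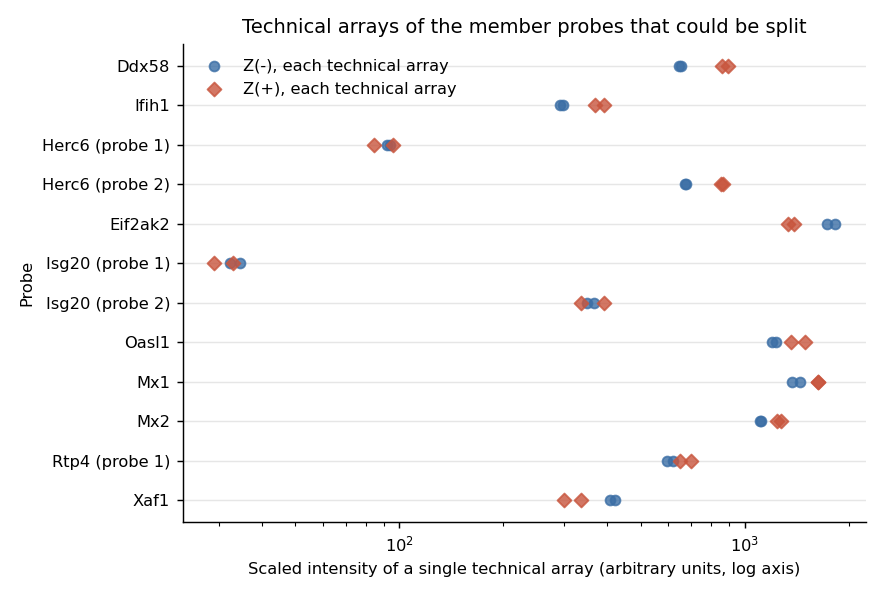
Scaled intensity of each technical array for the 12 member probes that could be split, on a log axis, for Z(-) (circles) and Z(+) (diamonds). The arrays of Ddx58, Ifih1, Oasl1, Mx1 and Mx2 and of 1 probe each of Herc6 and Rtp4 are higher in Z(+), and those of Eif2ak2 and Xaf1 are lower.

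The genes that make interferon were dim, and 1 of the 6 receptor genes stood far from the others. Of 21 listed interferon genes, 6 had a probe and 0 of these reached the median of all genes. Of the 6, 1 was at least 2-fold higher and 1 at least 2-fold lower, where 2.44% and 6.27% of all genes were. Ifng, the type II interferon, gave a signal intensity of 74.0 in Z(-) against 151 in Z(+), with arrays of 75.2 and 72.7 against 153 and 149. Ifne, a type I interferon of the reproductive tract, was the gene counted as lower at 7.05 and 2.49, but its arrays, 1.98 and 12.1 against 2.90 and 2.07, overlapped between the fractions. Ifna12 had 41.0 and 54.2, Ifnk 23.0 and 22.5, and Ifnb1, the first type I interferon made by many cells, 11.1 and 12.5. Such dim values do not show that a transcript is absent.

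Of the receptor genes, 5 were higher in Z(+) and 1 was lower. Ifnlr1, the specific chain of the type III interferon receptor, had 1591 in Z(-) and 353 in Z(+), which is 4.50-fold lower, and its arrays were 1597 and 1585 against 340 and 367. Neutrophils are known to respond to type III interferon in mice. Of 7 measured neutrophil markers 3 were at least 2-fold lower, where 6.27% of all genes were, and the median was -0.39. Of the 3, Cxcr2 had 3599 and 848. Another 2 were higher in Z(+), among them Csf3r at 7852 and 9036. The part of neutrophils in the difference of Ifnlr1 was not tested. Ifngr1 and Ifngr2, the chains of the type II receptor, were both higher in Z(+), by 1.97-fold and 1.91-fold. Ifngr1 had 4416 and 8718, and the probes of Ifngr2 had 1481 and 3660 and, for the brighter, 7542 and 11143. Of 11 measured macrophage genes 8 were at least 2-fold higher, where 2.44% of all genes were, and the median was 1.61. The part of macrophages in the higher type II receptor was not tested. The type I receptor was closer to no difference, with Ifnar2 at 3962 and 5140 and the brighter probe of Ifnar1 at 589 and 838.

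Below the receptors, the kinases were within 2-fold. Jak2 was 1.32-fold and Tyk2 1.10-fold higher, and Jak1 was 1.23-fold lower. Of 14 measured genes of nucleic acid sensing and interferon induction, 8 were higher and 6 lower, with a median log2 difference of 0.05. None was past 2-fold, and 91.3% of all genes were within it. Ticam1, the adaptor of Tlr3, lay farthest from 0 at -0.99, with probes that differed in size, 932 and 804 for the brighter and 518 and 152 for the dimmer. Irf5, a factor of Toll-like receptor signaling, had 14610 in Z(-) and 17941 in Z(+), and Myd88, the adaptor of those receptors, had 8764 and 9665. Ikbke, a kinase that activates IRF3 and IRF7, had 9579 and 16616, and Tlr7, the endosomal sensor of single-stranded RNA, had 5544 and 9561. Both were higher by 0.79. Other interferon regulatory factors had a median of -0.22, with Irf8, a factor of dendritic cells and monocytes, at 4240 and 3097. Negative regulators had a median of 0.08 with 7 of 7 within 1.5-fold, where 78.0% of genes that reach the median intensity were. Among them, Socs3, the suppressor of JAK signaling, had 19729 and 22721.

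Interferon-stimulated genes outside the list had few members past 2-fold as well. Of 33 measured further genes, 1 was at least 2-fold higher and 1 at least 2-fold lower, where 2.44% and 6.27% of all genes were. Within 2-fold were 93.9% of the 33 and 91.3% of all genes, so this count is not particular to the list. Its median log2 difference was 0.12. Dtx3l, the ubiquitin ligase that pairs with PARP9, had 2729 in Z(-) and 6489 in Z(+). Ifi27, an interferon-induced protein of mitochondria, was lower with 13738 and 5773. The brightest others were Ifi27l2a at 60599 and 53088, Samhd1, a nucleotide hydrolase that limits retroviruses, at 32129 and 39027, and Ifitm2 at 21953 and 17427. Like Ifitm3, Ifi27l2a lies near the highest values, 65528 and 65296, where a scanner can compress differences. Ifit3b, a close relative of the unmeasured Ifit3, had 1064 and 917. Of 13 measured genes known for induction by interferon gamma, none was past 2-fold and 12, which is 92.3%, were within 1.5-fold. Of all genes, 91.3% were within 2-fold and 78.6% within 1.5-fold. The 12 include Cxcl10, whose values both lay under the floor of 1, which set its difference to 0. The brightest were Psmb8 at 25487 and 19798, Psmb9 at 21263 and 15230, both subunits of the immunoproteasome, and Tap1, the peptide transporter, at 13189 and 12414. Gbp5 was the exception at 664 and 371. The OAS, IFIT, GBP and IFITM genes have close relatives, and how well a probe tells them apart is not given in the sources used here.

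The medians of the NK cell, basophil, T cell, macrophage, plasmacytoid dendritic cell and conventional dendritic cell lists lay farther from 0 than the difference of any member, and those of the monocyte, neutrophil, B cell and erythroid lists did not. The median log2 difference was -4.26 over 11 NK cell genes, -4.34 over 5 basophil genes, -1.99 over 6 T cell genes, -0.97 over 6 conventional dendritic cell genes and 1.61 over the 11 macrophage genes. It was 0.09 over 8 monocyte genes, -0.08 over 4 B cell genes and -0.23 over 4 erythroid genes. Klre1, an NK cell receptor, had 7437 in Z(-) and 309 in Z(+), and Mertk, a macrophage receptor for dying cells, had 131 and 663. On the NK cell list, 9 of the 11 lay past 2-fold on the lower side in Z(+), where 6.27% of all genes did. Eomes and Ncr1 were the exceptions. Eomes was higher in Z(+), at 661 in Z(-) and 898 in Z(+), with arrays of 652 and 670 against 882 and 913. Ncr1 was dim at 5.50 and 5.52, with overlapping arrays. Hyal2, the receptor by which Z cells are defined, had 608 and 670, and Cd3e had 1333 and 593.

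**Figure D5:**
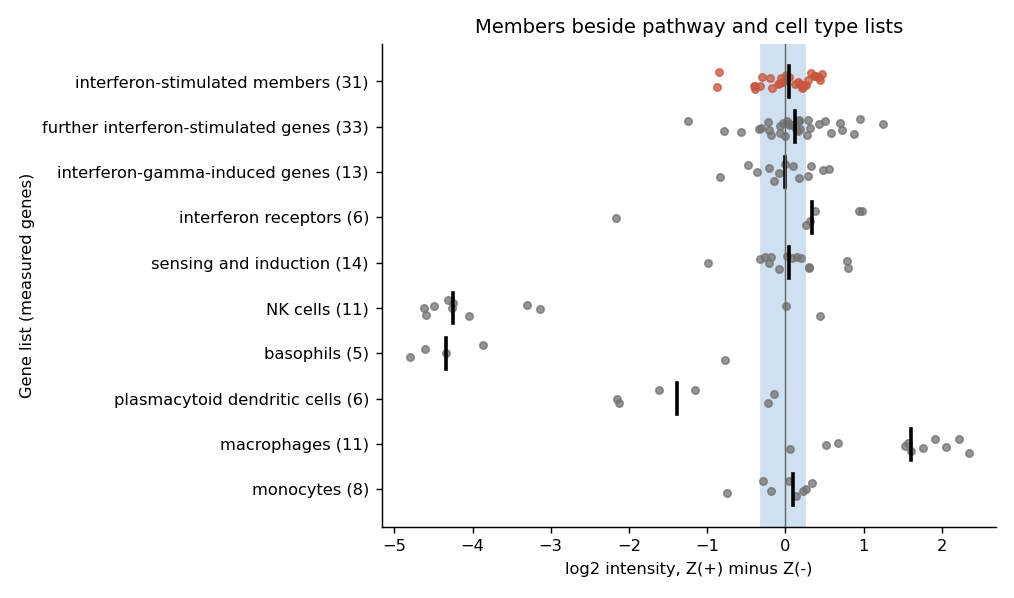
Log2 intensity of Z(+) minus Z(-) for the genes of each list, 1 point per gene, with the list's median as a black bar and the middle 50% of all genes that reach the median intensity as the blue band. The members (red) range from -0.88 to 0.47, while the medians of the NK cell and basophil lists lie below -4.

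Genes with the response element core had medians near 0. The 12 measured members with the core in their window had a median log2 difference of -0.02 and the 12 with a window but no core had 0.08. Isg15 and Bst2, whose printed stretches show 3 and 2 overlapping cores, are both among the 12. Of all 545 array genes with the core, the median was 0.10 and 91.6% were within 2-fold, beside 0.03 and 91.3% of 14422 genes with a window and no core.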

How the data were processed

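The authors deposited 1 linear intensity per probe and sample. Per the labels, total RNA was amplified and labelled with Cy5, and each column stands for 2 technical arrays. The scanner, background correction and normalization were not given in the sources used here. The number of arrays limits the precision. Values under 1 were set to 1, log2 was taken, and probes of a gene were averaged. In the platform annotation 21876 probes had 1 symbol, 0 had several and 4547 had none, and 21825 probes matched the RefSeq table of GRCm38.p6 by gene ID. The array's own build is not named. The value of 2 arrays was split as whole numbers times the factors 0.990 and 1.01 in Z(-) and 0.968 and 1.03 in Z(+), which succeeded for 99.8% of eligible probes in both. The split was tested on simulated data and is better determined for dim than for bright values: between 400 and 2000, many values made without array structure could be split too, so arrays given there are less certain. The 9 alternatives cover scaling, probe choice, dim values and thresholds. The members, lists and tests were chosen with earlier results of these data known. Named genes are all measured members and, from each other list, those at least 2-fold apart and up to 3 of the brightest others, or, for cell types, up to 2 with the largest differences, and always Hyal2 and Cd3e. Ifnar1, Tlr7, Ticam1, Cxcl10, Ifit3b, Gbp5, Csf3r, Cox6a2, Tcf4, Ccr9, Eomes and Ncr1 were named after their values were seen. Python 3.11.15 was used with pandas 2.3.3, numpy 2.4.6, statsmodels 0.14.6, scipy 1.17.1 and matplotlib 3.10.9.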

Additional observations from a re-analysis of the deposited data

How the results depend on the processing

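No member was past 2-fold under any of the scalings (centring on the median, quantile normalization, loess with a span of 0.3), with the brightest probe of each gene, with a pseudocount of 50 or with a floor of 20, nor was any past 3-fold. At 1.5-fold the count of lower members was 2. Quantile normalization moved the median difference of the members from 0.04 to 0.11, and that of all genes from 0.03 to 0.07. Over the settings that change a value, 27 of 31 members kept their sign, 17 higher and 10 lower, while Oas2, Gbp3, Ifitm3 and Rsad2 changed it. No scaling moved the median of all genes by over 0.1. No paired analysis was possible because each group holds 1 sample. Without detection calls in the table, dim probes could not be told from background.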

Other observations

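Interferon-stimulated genes that are neighbours on the chromosome, as ordered in the RefSeq table of GRCm38.p6, did not always share their difference. Parp9 and Dtx3l, which is outside the member list, lie next to each other on chromosome 16, with log2 differences, Z(+) minus Z(-), of 0.22 and 1.25, each from 1 probe. Oas2 and Oas3 on chromosome 5 had -0.07 and 0.43, Oasl2 and Oasl1 on the same chromosome had 0.01 and 0.22, and Rsad2 and Cmpk2 on chromosome 12 had -0.03 and -0.33. Oas1b, a further gene of the OAS family chosen after its values were seen, had a pair of probes with log2 differences of 1.27, from the dimmer probe at 51.0 in Z(-) and 123 in Z(+), and 0.12.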
